A study of Homo sapiens with 2 samples.

Results

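The study narrowed its search for LDB1 targets in acute myeloid leukemia to 19 candidate genes, and 10 of them are described here: CELF2, FAM117A, FMNL1, ORAI2, HSH2D, DLGAP1-AS1, NEAT1, IRF2BP2, ZFP36L2 and ANKRD13D. Deposited LDB1 peaks were taken as belonging to a candidate when they overlapped its GENCODE body, extended by 50 kb on each side, by at least 1 bp. This gave 49 of the 11046 peaks of the series, and no peak fell in 2 of the 10 windows. The peaks came from CUT&Tag, in which an antibody directs a transposase to a bound protein and the enzyme tags the DNA nearby. The cells were NB4, a human acute promyelocytic leukemia line. One library was made with an LDB1 antibody from cells labelled as overexpressing LDB1, and 1 with IgG from untreated cells, so antibody and treatment cannot be told apart. The study's methods do not mention overexpression for CUT&Tag, and the peak list has no sample column and was assigned to the LDB1 library from its peak names. There was a single library of each kind, so values are given without a test. The IgG library was not used here.

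LDB1 does not touch DNA itself. It joins LIM-domain proteins such as LMO2 to DNA-binding factors, among them GATA factors and the E-box proteins TAL1 and LYL1, and it can bind to itself and thereby bring distant elements and promoters together. In blood cells the complex is best known for a composite site in which part of an E-box stands about a helical turn from a GATA motif. The candidates had been picked by the study partly from LDB1 ChIP-Seq in the same cell line, so the presence of a peak is not independent evidence of binding. In the study they also had to be bound in most of a set of leukemia transcription factor datasets. They further had to change in expression after LDB1 knockdown and to carry a super-enhancer in acute myeloid leukemia samples. The genes used as background here were not chosen in this way. Peaks carry a start, an end and a length but no height, and their read depth is unknown. Intervals of shares are 95% Wilson intervals, which cover counting error within this single library, and neighbouring peaks at 1 gene are not independent of each other. Against the cell label, 6 of 10 granulocyte genes and 7 of 10 red cell genes had a peak in the gene or within 3 kb, compared with 19.7% of protein-coding genes. These peaks thus did not set granulocyte genes apart from red cell genes, and they do not measure expression.

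To show what the LDB1 complex could read at these genes, the sites that match its composite element are given first, since few peaks held one. The composite was searched as CTG followed after 7 or 8 bases by the GATA motif (AGATAA or TGATAA, the last base also being G in either), on both strands of each whole peak. It was found in 4 of the 49 peaks (8.16%, 3.22 to 19.2%), once in each, compared with 22.4% of all peaks searched in the same way. All 4 read on the minus strand of hg38 and are written that way, with the element in capitals and 30 bases on either side.
CELF2 peak 6, chr10:11180534-11180610: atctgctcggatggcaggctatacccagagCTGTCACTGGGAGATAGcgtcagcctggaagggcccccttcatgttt
DLGAP1-AS1 peak 9, chr18:3616292-3616368: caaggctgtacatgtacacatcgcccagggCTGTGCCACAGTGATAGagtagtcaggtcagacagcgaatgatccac
NEAT1 peak 3, chr11:65448740-65448816: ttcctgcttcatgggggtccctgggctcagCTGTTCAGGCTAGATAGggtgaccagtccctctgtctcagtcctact
ZFP36L2 peak 4, chr2:43178157-43178232: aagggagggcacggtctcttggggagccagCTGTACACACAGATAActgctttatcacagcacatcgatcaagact

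The spacing was 8 bases in CELF2, DLGAP1-AS1 and NEAT1 and 7 bases in ZFP36L2. In NEAT1 and ZFP36L2 the CTG belonged to a complete CAGCTG E-box, whereas in CELF2 and DLGAP1-AS1 it did not. The element lay 2 bp from the peak midpoint in DLGAP1-AS1. It was 120 bp from the midpoint in CELF2, 139 bp in NEAT1 and 444 bp in ZFP36L2, so 3 of the 4 were off the centre of the peak.

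Peaks with a GATA motif or an E-box (CAGCTG or CAGATG) in the central 200 bp are given next, 1 for each of 6 candidates, because these are the positions at which DNA-binding partners of LDB1 could stand. The windows of FMNL1, IRF2BP2, ZFP36L2 and ANKRD13D lay outside the genes and were chosen after their values were seen. They are written on the plus strand, so a motif on the other strand appears as its reverse complement, TTATCT in place of AGATAA for example, and capitals mark the motifs.
FAM117A peak 5, chr17:49739916-49740115: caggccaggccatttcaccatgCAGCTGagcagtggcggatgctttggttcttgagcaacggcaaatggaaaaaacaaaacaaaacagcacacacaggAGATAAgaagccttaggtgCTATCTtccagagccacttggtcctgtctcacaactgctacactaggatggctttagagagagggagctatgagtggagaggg
FMNL1 peak 3, chr17:45252693-45252892: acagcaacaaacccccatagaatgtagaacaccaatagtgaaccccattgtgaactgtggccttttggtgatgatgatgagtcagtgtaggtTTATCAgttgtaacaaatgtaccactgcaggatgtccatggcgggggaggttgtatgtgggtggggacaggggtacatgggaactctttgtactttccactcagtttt
HSH2D peak 1, chr19:16141120-16141319: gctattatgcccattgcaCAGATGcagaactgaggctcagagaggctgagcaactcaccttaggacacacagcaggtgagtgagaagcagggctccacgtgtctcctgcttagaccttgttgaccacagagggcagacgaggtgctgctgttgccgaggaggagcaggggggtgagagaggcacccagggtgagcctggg
IRF2BP2 peak 3, chr1:234558361-234558560: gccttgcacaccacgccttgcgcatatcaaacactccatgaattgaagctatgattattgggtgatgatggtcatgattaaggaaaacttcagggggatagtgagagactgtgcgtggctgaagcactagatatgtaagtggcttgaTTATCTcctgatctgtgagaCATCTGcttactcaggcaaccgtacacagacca
ZFP36L2 peak 5, chr2:43175753-43175952: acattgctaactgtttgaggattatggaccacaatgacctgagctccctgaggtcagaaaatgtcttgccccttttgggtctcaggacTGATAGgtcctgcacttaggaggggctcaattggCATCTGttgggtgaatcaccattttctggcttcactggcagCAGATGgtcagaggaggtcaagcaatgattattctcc
ANKRD13D peak 1, chr11:67348452-67348651: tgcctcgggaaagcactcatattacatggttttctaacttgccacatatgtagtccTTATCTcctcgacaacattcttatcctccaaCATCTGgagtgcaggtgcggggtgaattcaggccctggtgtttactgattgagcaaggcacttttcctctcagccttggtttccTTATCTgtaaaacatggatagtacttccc

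FAM117A peak 5 held 2 GATA motifs near its midpoint, on opposite strands. The central window of ANKRD13D peak 1 held 2 GATA motifs with an E-box between them. The HSH2D window held an E-box and no GATA motif.

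To see how densely LDB1 peaks surround the candidates, peaks in each window were counted. All 10 candidates had at least 1 peak, compared with 37.9% of 38899 protein-coding and lncRNA genes. The numbers were 11 for DLGAP1-AS1, 7 for NEAT1, 6 for CELF2, and 5 each for FAM117A, ORAI2 and ZFP36L2. FMNL1 had 4, IRF2BP2 3, HSH2D 2 and ANKRD13D 1. Thus 6 of the 10 had 5 or more peaks, compared with 5.29% of all genes.

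Since CELF2 spans 538 kb and ZFP36L2 only 4.21 kb, counts were also set against the length of the window. DLGAP1-AS1 had 10.5 peaks per 100 kb, higher than 99.7% of all genes. NEAT1 followed with 5.7 per 100 kb (percentile 98.1), ZFP36L2 with 4.8 (97.1) and ORAI2 with 4.04 (96.2). FMNL1 had 3.18 (94.0), IRF2BP2 2.83 (92.1), FAM117A 2.8 (91.8) and HSH2D 1.61 (83.5). CELF2 fell to 0.94 (74.6) despite its 6 peaks, and ANKRD13D was lowest at 0.884 (72.1). The median percentile of the 10 was 93.0. For the 9 remaining candidates of the study it was 82.0, with 24 peaks in all and none in the window of PTMA. The 10 were chosen with earlier results of these data known, so the split from the other 9 was not neutral. The window of SLC25A45, one of these 9, shares 2 peaks with that of NEAT1.

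**Figure D1:**
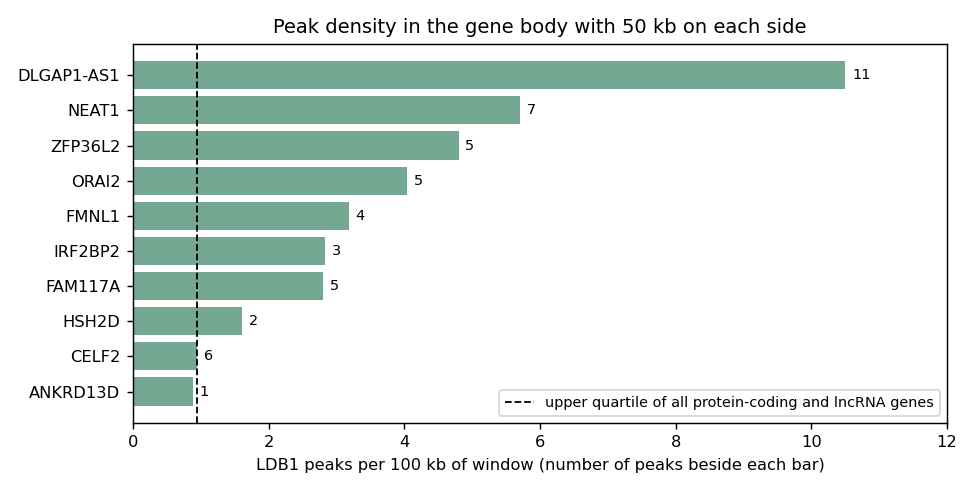
LDB1 peaks per 100 kb of window (gene body with 50 kb on each side) for the 10 candidates, with the number of peaks beside each bar and the upper quartile of all protein-coding and lncRNA genes (0.947) as a dashed line. DLGAP1-AS1 stands at 10.5 per 100 kb, and CELF2 (0.94) and ANKRD13D (0.884) lie just below the dashed line.

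Position within the window differed between the candidates. In the gene body or within 3 kb of it, 8 of 10 had a peak (80%, interval 49.0 to 94.3%), compared with 14.9% of all genes. For protein-coding genes alone these were 6 of 8, compared with 19.7%. Neither comparison was matched for gene length. ZFP36L2 and ANKRD13D had none. A peak midpoint lay within 3 kb of an own transcription start site (TSS) in 6 of 10 (60%, 31.3 to 83.2%), compared with 7.89% of all genes. These 6 were CELF2, FAM117A, FMNL1, ORAI2, HSH2D and DLGAP1-AS1. A TSS of any annotated transcript counted, and these 6 genes had from 8 (HSH2D) to 17 (CELF2) transcripts. The comparison was not matched for the number of transcripts or for gene type. The count of candidates was 3 with a 1 kb window, 3 with the canonical TSS alone and 0 with peaks of at least the median length of all peaks. The share of all genes was not computed under these stricter settings, so these 3 counts have no background beside them. Of the other 9 candidates, 6 had a peak in the gene or within 3 kb and 3 had one within 3 kb of an own TSS. As stated above, the split between the 10 and these 9 was not neutral.

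Of the 49 peaks, 15 (30.6%, 19.5 to 44.5%) had their midpoint in an intron of the candidate, 4 in an exon of it, 6 upstream and 24 downstream. Counting any annotated gene, 71.4% (57.6 to 82.2%) lay in an intron, compared with 56.1% of all peaks. Another 10.2% (4.44 to 21.8%) lay outside genes, compared with 32.4% of all peaks. As the windows were drawn around genes, part of both differences follows from how the peaks were chosen. The share within 3 kb of any TSS was 46.9% (33.7 to 60.6%), and the interval included the 35.6% of all peaks. The nearest TSS of any gene belonged to the candidate for 16 of the 49. Among the 31 peaks of the 8 protein-coding candidates, 27 had the candidate as their nearest protein-coding TSS. Part of this count follows from the choice of peaks, since the windows were drawn around the candidates. The windows of CELF2 and IRF2BP2 overlapped no other protein-coding gene. The same count for other genes was not computed.

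**Figure D2:**
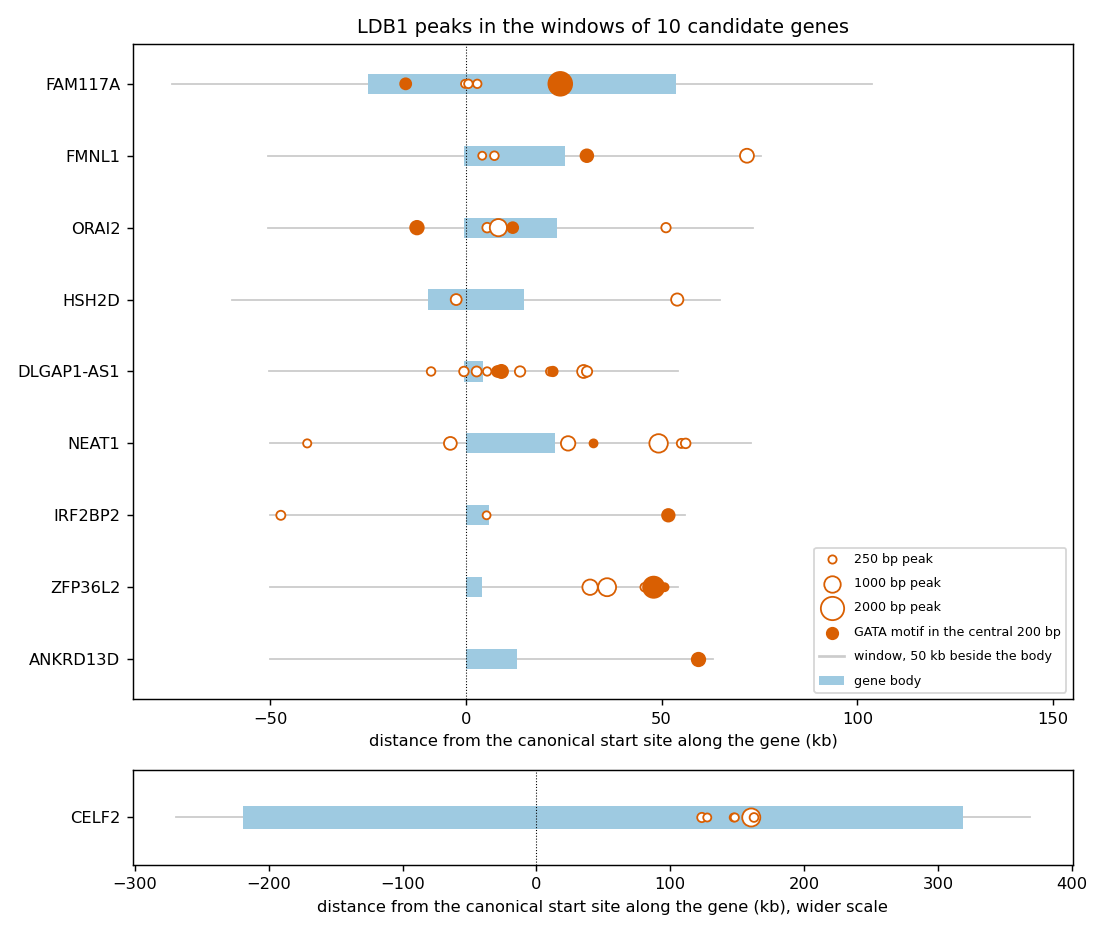
Peaks (circles, area scaled to length) along the window of each candidate, in kb from the start site of its canonical transcript, with CELF2 on a wider scale. Bars are gene bodies, grey lines are the windows and filled circles have a GATA motif in the central 200 bp. Peaks of CELF2 and FAM117A all lie inside the gene, while all 5 of ZFP36L2 and the only one of ANKRD13D lie beyond its end.

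CELF2 encodes an RNA-binding protein that controls alternative splicing (ENSG00000048740.19, chromosome 10, 10798397 to 11336675, plus strand). All 6 of its peaks lay inside the gene and within 39276 bp of each other, so most of the long gene was bare. None was closer than 123604 bp to the TSS of the canonical transcript. Peaks 3 (11165140 to 11165375, 236 bp) and 4 (11165976 to 11166221, 246 bp) instead lay near internal start sites, with midpoints 117 and 612 bp from the closest one. Peak 5 (11177798 to 11178999) was the longest at 1202 bp and lay in intron 2. The neighbouring peak 6 (11180310 to 11180594, 285 bp) carried the composite shown above. Peaks 1 (11141319 to 11141634, 316 bp) and 2 (11145406 to 11145644, 239 bp) lay in intron 1. No CELF2 peak had a GATA motif in its central 200 bp, whereas 3 had an E-box and 2 an ETS motif.

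FAM117A is a protein-coding gene whose function is little known (ENSG00000121104.8, chromosome 17, 49710332 to 49789180, minus strand). It had 5 peaks, all in the gene, and its own TSS was the nearest one for each. Peak 5 (49738983 to 49741048) was 2066 bp long, the longest of the 49, and lay in intron 1, 24116 bp into the gene from its canonical TSS. It held 10 GATA motifs over its whole length. Peaks 2 (49764204 to 49764444, 241 bp) and 3 (49763348 to 49763617, 270 bp) stood on either side of the canonical TSS, with midpoints 193 bp upstream and 649 bp downstream. Peak 4 (49761083 to 49761344, 262 bp) lay 2918 bp downstream, and peak 1 (49779276 to 49779720, 445 bp) lay 15367 bp upstream of that TSS and had 2 GATA motifs.

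FAM117A had the most promoter bases inside a peak, so that promoter is shown. RefSeq promoters of 7 of the 10 candidates were matched by symbol, 18 in all since some genes have several, and 2 of the 18 had bases in a peak. In the other, at CELF2, only 5 of 300 bases did. The 250 bases before the FAM117A start (GRCh38.p14, chr17:49764132-49764381, minus strand, written along the gene) held 178 bases of peak 2, in capitals.
FAM117A promoter: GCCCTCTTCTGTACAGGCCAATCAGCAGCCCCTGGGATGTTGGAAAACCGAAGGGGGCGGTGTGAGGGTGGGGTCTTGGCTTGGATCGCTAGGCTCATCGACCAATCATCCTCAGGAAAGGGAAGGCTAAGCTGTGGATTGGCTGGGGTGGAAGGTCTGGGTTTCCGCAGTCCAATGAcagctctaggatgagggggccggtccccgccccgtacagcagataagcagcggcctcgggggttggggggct
This promoter had 1 GATA motif (AGATAA), which stood outside the peak. At least 1 GATA motif was found in 25.0% of 35116 RefSeq promoters of 300 bases. The sequence CCAAT, counted on both strands after it had been noticed in this promoter, occurred 4 times, each time inside the peak, and 0.991% of the promoters held as many.

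FMNL1 encodes a formin that assembles actin filaments in white blood cells (ENSG00000184922.15, chromosome 17, 45221444 to 45247319, plus strand). Peaks 1 (45225948 to 45226180, 233 bp) and 2 (45229038 to 45229313, 276 bp) lay in intron 1, and both were short. Peak 2 was 1494 bp from an internal TSS. Peak 3 (45252495 to 45253089, 595 bp) lay 5473 bp past the gene, inside MAP3K14-AS1, with a GATA and an AP-1 motif in its centre. Its central 31 bases occur 2 times in hg38, and it was the only one of the 49 peaks with a repeated centre. Peak 4 (45293326 to 45294038, 713 bp) lay in MAP3K14, 46363 bp past FMNL1.

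ORAI2 encodes a subunit of store-operated calcium channels (ENSG00000160991.17, chromosome 7, 102433106 to 102456825, plus strand). Of its 5 peaks, peak 2 (102438846 to 102439184, 339 bp) had its midpoint in coding exon 3. Peaks 3 (102441344 to 102442436, 1093 bp) and 4 (102445334 to 102445766, 433 bp) lay in intron 3. Peak 1 (102420753 to 102421427, 675 bp) lay 12016 bp upstream of the gene, in PRKRIP1, and had 2 GATA motifs. Peak 5 (102484534 to 102484857, 324 bp) lay 27870 bp past the gene in RASA4B. ORAI2 had no E-box in the centre of any peak.

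HSH2D encodes a hematopoietic adaptor protein with an SH2 domain (ENSG00000196684.12, chromosome 19, 16134028 to 16158575, plus strand). It had 2 peaks 55962 bp apart. Peak 1 (16141000 to 16141439, 440 bp) lay in the gene, 2466 bp upstream of the canonical TSS, with an E-box and a RUNX motif in its centre. Peak 2 (16197402 to 16197953, 552 bp) lay 39102 bp past the gene and 61 bp from the TSS of an unnamed lncRNA (ENSG00000287961).

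DLGAP1-AS1 and NEAT1 were the 2 lncRNA genes and had the highest density. DLGAP1-AS1 (ENSG00000177337.10, chromosome 18, 3593732 to 3598363, plus strand) runs antisense inside DLGAP1, a gene for a synaptic scaffold protein. All 11 of its peaks lay within DLGAP1, over 40165 bp, and no neighbouring peaks were more than 8092 bp apart. Peak 2 (3593445 to 3593780, 336 bp) stood over the start of the gene, with its midpoint 120 bp upstream of it. Peak 3 (3596669 to 3597034, 366 bp) had its midpoint in exon 3, and peak 4 (3599412 to 3599672, 261 bp) followed 1179 bp past the gene. The longest was peak 6 (3602865 to 3603505, 641 bp), with 3 GATA motifs and an AP-1 motif, 185 bp from a TSS of the lncRNA DLGAP1-AS2. Peak lengths ranged from 261 to 641 bp, so the cluster was made of many peaks of ordinary length rather than of long ones. Peak 9 (3616168 to 3616497, 330 bp) was the only one of the 49 with the composite in its central 200 bp.

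NEAT1 makes the RNA around which paraspeckles, a kind of nuclear body, are built (ENSG00000245532.11, chromosome 11, 65422774 to 65445540, plus strand). None of its 7 peaks touched the gene body. Peak 2 (65418544 to 65419149, 606 bp) lay 3928 bp upstream with a RUNX motif, and peak 3 (65448536 to 65449298, 763 bp) began 2996 bp past the gene end and carried a composite. Peak 5 (65471403 to 65472655) was the longest at 1253 bp, 26489 bp past the gene. The nearest TSS was not that of NEAT1 for any of the 7, and 6 of them lay within 3 kb of another gene's TSS. Peak 1 (65382161 to 65382406, 246 bp) was 90 bp from a TSS of SLC25A45, itself a candidate of the study.

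IRF2BP2, a corepressor that partners IRF2, and ZFP36L2, an RNA-binding protein that promotes decay of AU-rich messenger RNAs, both lacked a peak at their own TSS. IRF2BP2 (ENSG00000168264.11, chromosome 1, 234604269 to 234610178, minus strand) had 3 scattered peaks. Peak 2 (234604764 to 234604994) was 231 bp long and lay in the noncoding part of exon 2, with a RUNX motif and no GATA motif. Peak 1 (234657285 to 234657587, 303 bp) lay 47258 bp upstream with an AP-1 motif. Peak 3 (234558172 to 234558749, 578 bp) lay 45809 bp past the gene with a GATA motif and an E-box in its centre.

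ZFP36L2 (ENSG00000152518.8, chromosome 2, 43222402 to 43226606, minus strand) had no peak within 27090 bp. Beyond that, 5 peaks stood together within 19579 bp, all in the lncRNA gene LINC02580 and all with ZFP36L2 as the nearest protein-coding TSS. The window overlapped only 1 other protein-coding gene. Peak 4 (43177817 to 43179462) was 1646 bp long and held 10 GATA motifs and a composite over its whole length. Peak 2 (43189937 to 43191125) was 1189 bp long with 5 GATA motifs over its whole length. Peak 1 (43194441 to 43195312) was 872 bp long with 3 over its whole length. Neither had a GATA motif in its central 200 bp. Peaks 3 (43180797 to 43181065, 269 bp) and 5 (43175734 to 43175970, 237 bp) were short. The median length of the 5 was 872 bp, compared with 451 bp for all peaks.

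ANKRD13D encodes an ankyrin-repeat protein that binds ubiquitin (ENSG00000172932.16, chromosome 11, 67289300 to 67302485, plus strand). Its only peak (67348218 to 67348884, 667 bp) lay 46066 bp past the gene in RAD9A. POLD4 had the closest protein-coding TSS, 4527 bp away. Of the 10 candidates, ANKRD13D thus had the fewest peaks and the peak farthest from its gene, counted as the gap to the nearest peak (45733 bp).

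Peak length was then compared, as the only measure of size in the list. The candidate peaks ranged from 231 to 2066 bp with a median of 341 bp (interval 303 to 445 bp), shorter than the median of 451 bp (445 to 457 bp) of all peaks. In the gene body or within 3 kb the median was 300.5 bp (22 peaks), and farther out it was 426 bp (27 peaks). At the other end, 6 peaks (12.2%) were 1000 bp or longer, compared with 10.5% of all peaks. A peak of that length in the gene or within 3 kb was found in 3 of 10 candidates, CELF2, FAM117A and ORAI2, compared with 2.63% of all genes. A longer gene can hold more peaks, and this comparison was not matched for gene length. Most candidate peaks (32 of 49) were thus under the median length of all peaks. The share of 1000 bp or longer was near that of all peaks.

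**Figure D3:**
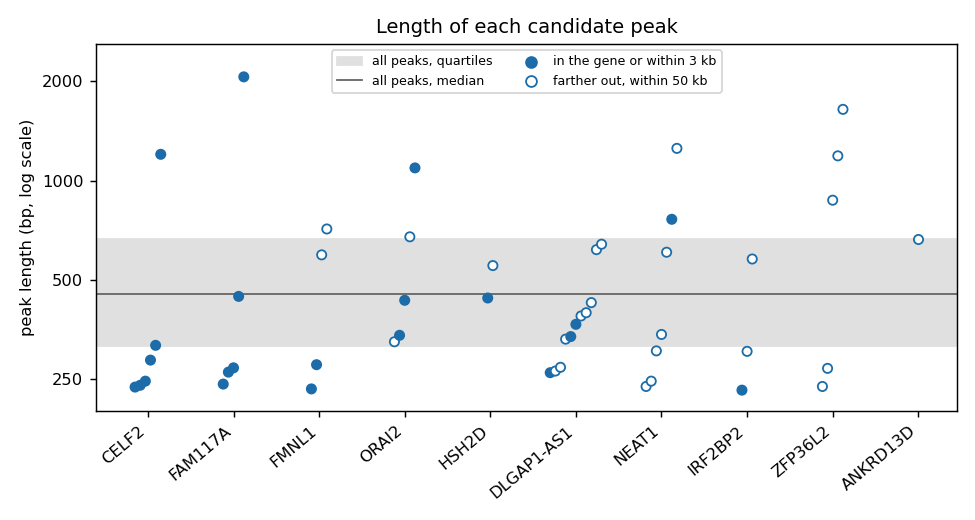
Length of each candidate peak in bp on a log axis, by gene, with the median and quartiles of all 11046 peaks in grey. Filled points lie in the gene or within 3 kb. FAM117A holds the longest peak (2066 bp), and 3 of the 5 peaks of ZFP36L2 exceed the upper quartile of all peaks (666 bp).

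To compare sequence, motifs were counted in the central 200 bp of each peak, on both strands, and in windows 1000 bp to either side. The GATA motif was found in 13 of the 49 candidate peaks (26.5%, 16.2 to 40.3%), compared with 47.1% of all peaks. In the flanking windows of the candidate peaks the share was 28.6% (20.6 to 38.2%), compared with 27.5% in the flanks of all peaks. The centres of the candidate peaks thus held the GATA motif about as often as their flanks did, and less often than all peaks, whose share lay above the interval. Some flanking windows fell on a neighbouring peak, as between DLGAP1-AS1 peaks 5 and 6, or within the same long peak, as at FAM117A peak 5. The flanks are therefore not free of peaks. The composite, which contains the GATA motif, was found in 1 of 49 (2.04%, 0.361 to 10.7%), compared with 11.2% of all peaks.

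Peak length moved with this result. Among peaks under the median length, 6 of 32 candidate peaks (18.8%, 8.89 to 35.3%) and 41.2% of all peaks had a GATA motif. Among the longer ones, 7 of 17 (41.2%, 21.6 to 64.0%) and 53.0% had one, and there the interval included the share of all peaks. The distance to a TSS moved with it as well. Within 3 kb of any TSS, 4 of 23 candidate peaks (17.4%, 6.98 to 37.1%) and 42.2% of all peaks had a GATA motif. Outside 3 kb the shares were 9 of 26 (34.6%, 19.4 to 53.8%) and 49.8%, and this interval included the share of all peaks. The part of length and of TSS distance in the result was not tested. Over the whole length of the peaks, GATA motifs numbered 63, or 2.47 per kb, compared with 2.64 per kb in all peaks. The 2 peaks richest in it, FAM117A peak 5 and ZFP36L2 peak 4, held 20 of the 63. In the central windows the density was 2.04 per kb, compared with 3.3 in all peaks. In the gene body or within 3 kb, 3 of 22 peaks (13.6%, 4.75 to 33.3%) had a central GATA motif, and farther out 10 of 27 (37.0%, 21.5 to 55.8%), with overlapping intervals. The 9 remaining candidates had a share of 29.2% (14.9 to 49.2%) in 24 peaks.

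The E-box was found in 28.6% of the candidate peaks (17.8 to 42.4%), compared with 33.8% of all peaks, and in 17.3% of their flanks. The RUNX motif (TGTGGT or TGCGGT) was found in 20.4% (11.5 to 33.6%), compared with 20.5% of all peaks. The ETS motif (AGGAAGT or CGGAAGT) was found in 10.2% (4.44 to 21.8%), compared with 6.18%, and AP-1 (TGACTCA or TGAGTCA) in 12.2% (5.73 to 24.2%), compared with 9.5%. KLF (GGGTGTG or GGGCGTG) was found in 8.16%, compared with 11.2%, and CEBP (TTGCNNAA) in 8.16%, compared with 7.47%. TEAD (GGAATG) was found in 6.12%, compared with 11.2%. For each of these 7 motifs the interval included the share of all peaks. The shares in the flanks of the candidate peaks were 18.4% for RUNX, 9.18% for KLF and 14.3% for TEAD. They were 5.1% each for ETS, AP-1 and CEBP.

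**Figure D4:**
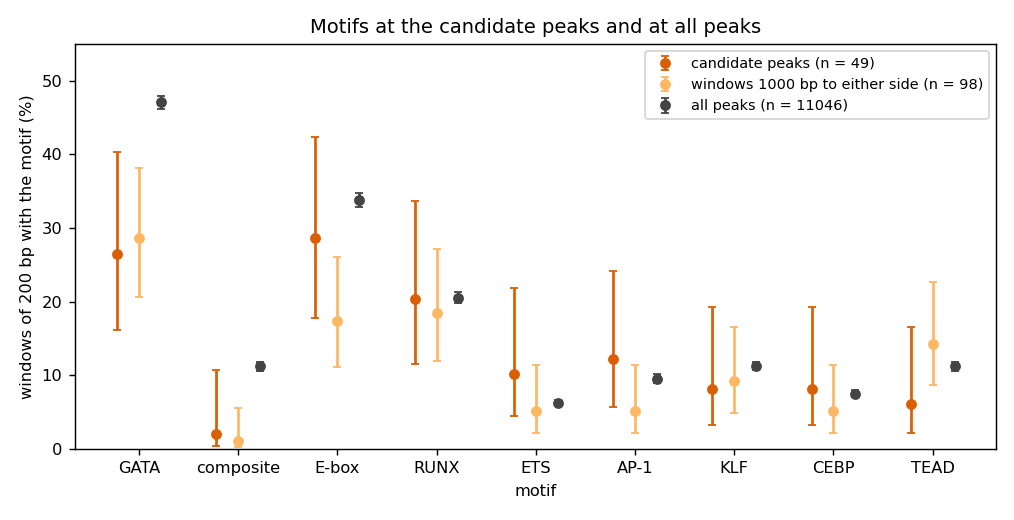
Share of 200 bp windows with each motif, in %, at the 49 candidate peaks, in 98 windows 1000 bp to either side of them and at all 11046 peaks. Points are shares and bars are 95% Wilson intervals. The GATA share of the candidate peaks (26.5%) lies below that of all peaks (47.1%) and beside that of the flanks (28.6%).

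Motif counts by gene were small, and the genes differed in their number of peaks. AP-1 motifs were found in the centres of 6 peaks, 3 at DLGAP1-AS1, 2 at FMNL1 and 1 at IRF2BP2. None of these 6 lay in the gene or within 3 kb. The share was 0 of 22 there (0 to 14.9%) and 6 of 27 farther out (22.2%, 10.6 to 40.8%), with overlapping intervals. RUNX motifs were found in the centres of 4 of 11 peaks at DLGAP1-AS1, 3 of 7 at NEAT1, and 1 peak each at HSH2D, IRF2BP2 and ZFP36L2. FAM117A, ORAI2 and ZFP36L2 had 2 peaks each with a central GATA motif, and DLGAP1-AS1 had 3. A GATA motif and an E-box stood in the same central window in 4 peaks, FAM117A 5, IRF2BP2 3, ZFP36L2 5 and ANKRD13D 1 (8.16%, 3.22 to 19.2%), compared with 17.0% of all peaks. None of the 9 motifs was found in 14 peaks (28.6%, 17.8 to 42.4%), compared with 18.1% of all peaks. GC content was similar, with medians of 52.0% and 51.5%.

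**Figure D5:**
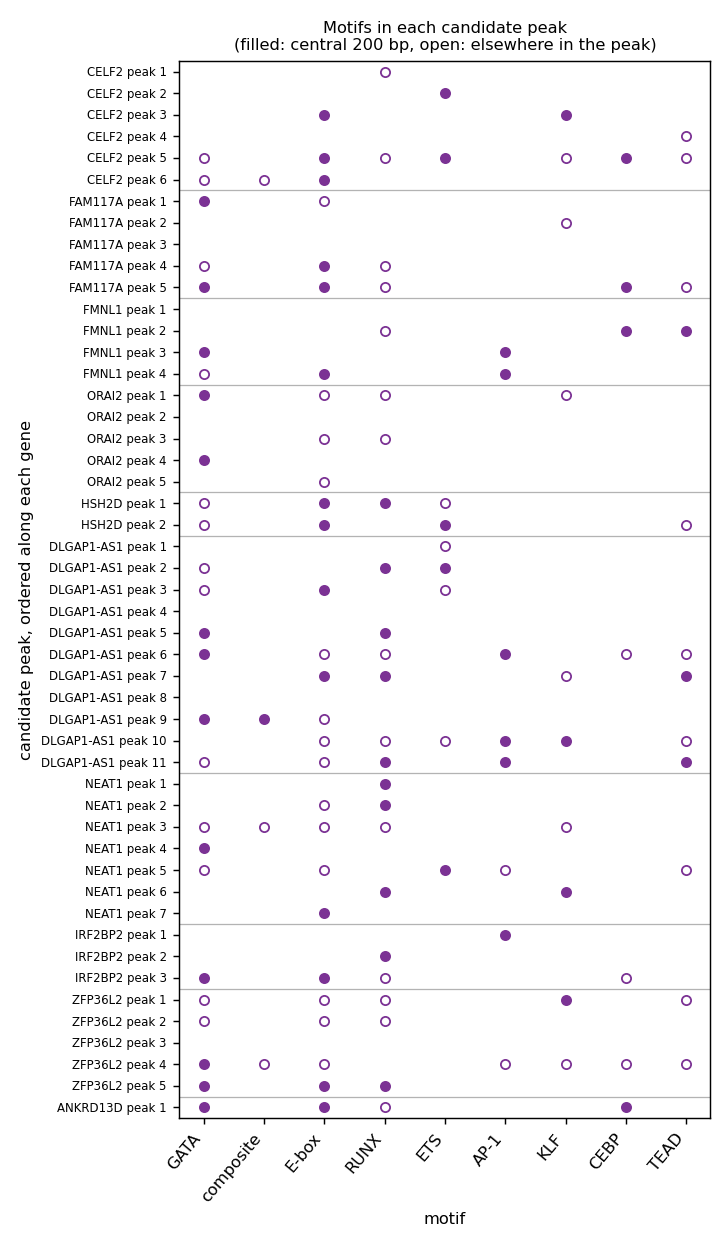
Motifs in each of the 49 candidate peaks, with filled points for the central 200 bp and open points for motifs found only elsewhere in the peak. Peaks are numbered along the direction of the gene. The 4 composites stand in CELF2 6, DLGAP1-AS1 9, NEAT1 3 and ZFP36L2 4, of which only DLGAP1-AS1 9 is filled.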

How the data were processed

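NB4 cells gave 2 CUT&Tag libraries, 1 for LDB1 and 1 for IgG. In the study's methods, paired-end reads were aligned to hg38 with Bowtie2 2.4.4 and peaks were called by the authors with MACS3 3.0 at a q-value limit of 0.01. Whether IgG served as control, and whether duplicates were removed, is not given in the sources used here. Without a control, open or repeated regions would be called more often. Each deposited peak has a start, an end and a length in bp, counted from 1 since the length equals the end minus the start plus 1 bp. Score, q-value and summit were not among the columns, so the midpoint replaced the summit.

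Genes came from GENCODE release 44 and sequence from hg38. Chromosome X peaks reach 156003136 of 156040895 bp. Promoters came from RefSeq (GRCh38.p14). Every peak of the 10 genes was described if it lay in the body or within 3 kb, as well as the longest and the nearest. The members, lists and motifs were chosen with earlier results of these data known. No test was made. Counts were set beside those of all genes or all peaks. The median's interval came from order statistics. Alternatives covered gene flanks, TSS windows, peak lists and motif windows. Counting was tested on simulated data, with 1000 of 1000 windows and 1800 of 1800 motifs recovered. Scripts ran in Python 3.11.15 with numba 0.67.0, numpy 2.4.6, matplotlib 3.10.9, SciPy 1.17.1 and pandas 2.3.3.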

Additional observations from a re-analysis of the deposited data

How the results depend on the processing

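No paired analysis was possible because there was a single library of each kind. A stricter peak threshold was not run, since the list has no score or q-value. Of 90 alternative values, 67 moved by less than the counting interval, or by less than 1.5 times for counts, and 23 moved by more. Peak height, depth and summit are unknown, so weak and strong peaks cannot be told apart. Dropping peaks by length or narrowing a window lowers counts by construction, and what else moved the values was not tested.

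The 49 peaks became 20 in gene bodies alone, 22 with 3 kb, 29 with 10 kb, and 17 with peaks of at least the median length. With those longer peaks, 4 candidates kept a peak in the gene or within 3 kb, and 0 kept one near an own TSS. The latter count was 3 with a 1 kb window and 3 with canonical transcripts. The share near any TSS was 24.5% within 1 kb and 22.4% for protein-coding TSS. The share in an own intron was 17.6% in the longer peaks.

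The GATA share was 53.1% in whole peaks, 41.2% in the longer peaks and 13.6% in genes with 3 kb. All peaks searched whole had 71.4%. In the central 200 bp, the composite share was 0% in genes with 3 kb. It was also 0% in the longer peaks, compared with 14.8% of all longer peaks. Without DLGAP1-AS1, a choice made after seeing the data, the share in the central 200 bp was 0% as well. Taking 3 counts as the limit of a count of 0, 0 of 17 allows up to 17.6%, and 0 of 22 up to 13.6%. The E-box share was 10.2% in 100 bp and 57.1% in whole peaks. The RUNX share was 4.08% in 100 bp, 49.0% in whole peaks and 5.88% in the longer peaks. The median length was 300.5 bp in genes with 3 kb. Leaving out each candidate in turn, also chosen after seeing the data, gave a GATA share of 25.0 to 30.2%.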
